A study of Homo sapiens with 12 samples.

Results

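The genes described here are 42 genes of DNA repair and of the DNA damage checkpoint, taken as the rows of the deposited count table whose Ensembl identifiers map to their symbols. The table holds 39266 genes, and all 42 were among the 20820 genes with enough counts to test. They were grouped by pathway into 19 homologous recombination genes, 9 Fanconi genes, 4 end-joining genes, 2 mismatch repair genes, 4 excision repair genes and 4 checkpoint kinases, and the comparison of interest set the 28 recombination and Fanconi genes against the 10 mismatch, excision and end-joining genes. Messenger RNA had been sequenced in PC9-OR, an osimertinib-resistant line derived from PC9, an established human non-small cell lung cancer line with an activating EGFR mutation. Control cells, cells given osimertinib (OSI, an inhibitor of mutant EGFR), cells given dauricine (DAC, a plant alkaloid) and cells given both (DAC+OSI) were compared, with 3 libraries in each of the 4 groups. The labels give neither doses nor exposure times, they name no vehicle for Control, and they do not say whether the libraries of a group came from separate cultures, so the p-values cover the variation among these libraries and nothing wider, and that variation may be technical. All groups share 1 resistant line, so nothing here separates the response of PC9-OR from that of its parent.

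Homologous recombination repairs double-strand breaks by copying an intact sister chromatid, and it is therefore used mainly in S and G2 phase: nucleases trim the broken ends, BRCA1, BRCA2 and their partners prepare the trimmed ends for pairing, RAD54L and other motor proteins help find and copy the template, and helicases and nucleases then separate the joined DNA. The Fanconi proteins recognise DNA crosslinks that block replication, mark the site by ubiquitination of FANCD2 and FANCI, and hand the break over to recombination. End joining rejoins broken ends directly, mismatch repair corrects replication errors, excision repair removes damaged bases, and the kinases ATM, ATR, CHEK1 and CHEK2 hold the cell cycle while repair proceeds. Many of these genes are transcribed most in dividing cells, with E2F factors acting at their promoters.

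Sequencing depth ran from 24.9 to 66.9 mega-counts (M) per library, so a level of 0 was compatible with as much as 0.0449 to 0.12 counts per M, depending on the library (a floor of 3 counts that covers counting error only, since PCR copies are not independent molecules). Control 2 and DAC+OSI 2 stood apart from the other libraries of their groups: across genes, their deviation from the group mean followed gene GC content with a Spearman rho of 0.56 and 0.57, against -0.52 to -0.37 in the other Control and DAC+OSI libraries and -0.09 to 0.06 in the OSI and DAC libraries. Deviations within a group sum to 0 for each gene, so the negative values are not a separate opposite trend. The members sat 0.20 below the group mean on the log2 scale in Control 2 and 0.37 below it in DAC+OSI 2 (mean deviations of -0.20 and -0.37). Counts of called members, by class and by pathway group, and of called cell cycle markers are therefore given with all 12 libraries and again without these, as the 10-library fit, in which more genes were called in every comparison. Epithelial markers were abundant, with KRT8 between 3772 and 8591 counts per M, and the fibroblast gene DCN was at 0 in 11 of the 12 libraries. Summed levels of the 6 fibroblast markers, of which 4 were tested, were nonetheless higher in DAC+OSI (27.3, 94.8 and 41.4 counts per M) than in Control (11.2 to 22.3), most of it COL1A1. Those of the 5 immune markers were 19.0, 59.6 and 17.4 in DAC+OSI against 14.2 to 21.4, so all but DAC+OSI 2 lay within the Control range. Those of the 3 endothelial markers were 12.4, 28.4 and 13.8 against 4.95 to 5.33. DAC+OSI 2 was the highest library for each of these lists, and the part of these markers in the results was not tested. In bulk samples such as these, fewer cells of a type and less RNA per cell cannot be told apart.

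Levels are given as counts per M (CPM) after libraries had been scaled by TMM, the trimmed mean of M values. Per kilobase of exon, the most abundant members in Control were the end-joining genes XRCC6 (110.0 CPM per kilobase) and XRCC5 (47.9), which encode the Ku heterodimer that caps broken ends, and PARP1 (29.3), which senses strand breaks. MUS81, the catalytic subunit of a junction-cutting nuclease, followed at 13.5 and PRKDC, the end-joining kinase, at 12.2. The recombination genes other than MUS81 lay between 0.55 (RAD54B) and 5.77 (NBN), and the Fanconi genes between 0.894 (BRIP1) and 5.28 (FANCI). The comparison between the pathway groups is thus one between mostly low and partly very high transcripts.

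With OSI alone, some of the recombination, Fanconi and excision repair members rose. At an adjusted p under 0.05 in edgeR's quasi-likelihood test, with adjustment over all genes tested by the Benjamini-Hochberg method, 14 of the 42 genes rose and 1 fell, where 10.6% of all tested genes rose and 8.23% fell. Of the recombination genes 6 of 19 rose and MUS81 fell, and of the Fanconi genes 5 of 9 rose. Among the other classes 1 of 2 mismatch genes and 2 of 4 excision genes rose, and none of the 4 end-joining and 4 checkpoint genes passed edgeR's test with all 12 libraries. At an unadjusted p under 0.05, 1 end-joining gene (POLQ) was higher and 0 checkpoint genes were; DESeq2 called the same numbers and limma-voom called 0 of both. The 10-library fit called 26 members higher and 5 lower, with all 15 calls kept, where 21.5% and 20.8% of its 21458 genes were called in those directions. By class it called 10 recombination genes higher and 3 lower, 8 Fanconi, 2 end-joining, 1 mismatch and 4 excision genes higher, and 1 checkpoint gene higher and 2 lower.

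RAD54L, a motor protein that drives strand exchange, measured 11.5, 12.1 and 11.6 CPM in Control and 30.0, 31.2 and 28.9 CPM in OSI. EXO1, a nuclease that resects broken ends, measured 13.6, 11.9 and 13.9 CPM in Control and 32.4, 36.2 and 36.9 CPM in OSI. For both genes every OSI library lay far above every Control library. The log2 fold changes were 1.36 ± 0.15 (SE, adjusted p = 5.92e-05) for RAD54L and 1.42 ± 0.22 (adjusted p = 0.000702) for EXO1. RMI2, a subunit of the complex that dissolves joined DNA molecules with the BLM helicase, rose from 5.12, 4.78 and 4.45 CPM to 9.16, 9.05 and 7.35 CPM, by 0.83 ± 0.16 (adjusted p = 0.00242). BARD1, the ubiquitin ligase partner of BRCA1 (1.17 ± 0.23), BLM (0.97 ± 0.27) and EME1, the partner of MUS81 (0.93 ± 0.20), rose as well. MUS81 itself ran the other way, from 68.3, 89.3 and 64.6 CPM in Control to 49.9, 48.9 and 44.9 CPM in OSI, and fell by 0.63 (SE 0.14, adjusted p = 0.00874). The subunits of this nuclease thus changed in opposite directions with OSI, with no overlap between the groups for either gene.

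Within the Fanconi pathway the rise with OSI spanned the core complex and its substrates. FANCI, ubiquitinated together with FANCD2, measured 45.5, 33.3 and 44.1 CPM in Control and 84.9, 85.8 and 75.4 CPM in OSI (log2 fold change 1.0 ± 0.16, adjusted p = 0.000941). FANCA, a core complex subunit, measured 8.17, 12.03 and 9.23 CPM against 16.7, 19.6 and 18.8 CPM (0.91 ± 0.16, adjusted p = 0.00177). FANCD2 measured 28.1, 22.8 and 26.7 CPM against 40.1, 42.4 and 38.1 CPM (0.63 ± 0.15, adjusted p = 0.0106). In none of these genes did the OSI libraries overlap with Control. BRIP1, a helicase that binds BRCA1 (1.12 ± 0.33, adjusted p = 0.0326), and the core subunit FANCG (0.45 ± 0.14, adjusted p = 0.0333) also rose, while FANCC (-0.05), FANCE (0.36), FANCL (0.64) and FANCM (0.53) did not pass the test. The calls of BRIP1, FANCG and BLM were lost in 6, 10 and 5 of 21 alternative analyses.

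Of the remaining classes, the largest change with OSI was in UNG, the glycosylase that removes uracil from DNA. Its libraries measured 24.5, 19.6 and 20.2 CPM in Control and 51.3, 49.1 and 45.7 CPM in OSI, so the groups were well apart (1.18 ± 0.19, adjusted p = 0.000713). MSH6, a mismatch recognition subunit, measured 35.1, 27.8 and 34.5 CPM in Control and 60.2, 54.1 and 56.7 CPM in OSI (0.81 ± 0.19, adjusted p = 0.00847). NEIL3, a glycosylase that also unhooks crosslinks, measured 6.42, 3.81 and 6.19 CPM against 8.77, 10.5 and 10.3 CPM (0.85 ± 0.20, adjusted p = 0.0105). All OSI libraries exceeded all Control libraries for MSH6 and NEIL3 as well. POLQ, the polymerase of the alternative end-joining route, measured 21.6, 13.6 and 22.1 CPM against 27.3, 29.2 and 30.8 CPM and did not pass the test (0.61 ± 0.24, adjusted p = 0.099). CHEK2, at 25.2, 30.2 and 25.2 CPM in Control and 35.3, 35.6 and 28.2 CPM in OSI, had the smallest p of the checkpoint kinases and overlapped between groups (0.30 ± 0.18, adjusted p = 0.294). The plot of levels in single genes shows these contrasts.

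**Figure D1:**
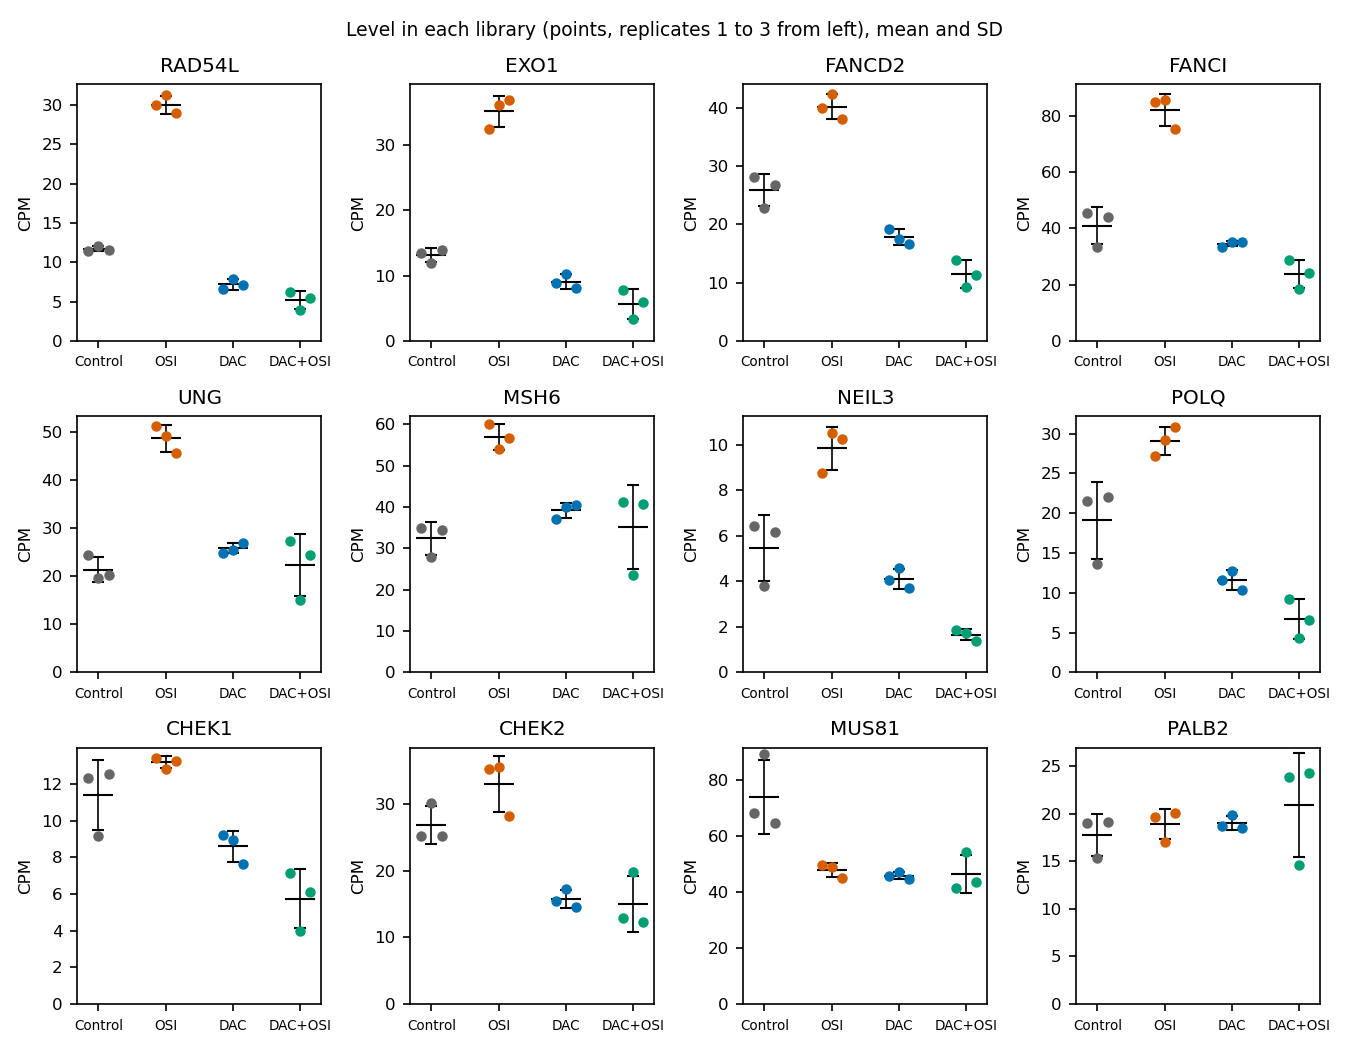
Levels of 12 genes in CPM (vertical axes, from 0) in the libraries of the 4 groups, with each library as a point and the mean and SD over the 3 libraries in black. RAD54L, EXO1, FANCD2, FANCI, UNG, MSH6 and NEIL3 stood highest in OSI without overlap with Control, and MUS81 was lower than Control in all 3 treated groups.

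Some genes of the same pathways outside the 42 were called with OSI as well, where 10.6% of all tested genes rose and 8.23% fell. Of 44 other recombination and Fanconi genes tested, 2 fell and 9 rose, among them UBE2T, the ubiquitin-conjugating enzyme of the Fanconi pathway (1.17) and the single-strand binding subunit RPA3 (0.80). Of 20 other base excision genes, 3 rose, among them the ligase LIG1 (1.30) and the flap nuclease FEN1 (1.16). Of 19 other checkpoint genes 8 rose, led by CLSPN (1.18) and TIMELESS (0.80), both parts of the replication checkpoint. Of 14 other end-joining genes POLM (-0.84) and LIG3 (-0.70) fell and TP53BP1 rose (0.31), and of 17 nucleotide excision genes 2 rose and 1 fell.

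All 16 markers of S phase rose with OSI, as did 7 of 16 markers of mitosis (16, and 12 with 1 lower, in the 10-library fit). The mean level of the S phase markers lay between 5.75 and 5.85 log2 CPM in OSI and between 4.52 and 4.61 in Control, without overlap, and that of the mitosis markers between 5.91 and 6.03 against 5.27 and 5.66. E2F1, an activator of S phase genes, went from 10.9, 12.9 and 9.78 CPM in Control to 67.9, 65.9 and 74.9 CPM in OSI (2.63 ± 0.24, adjusted p = 9.83e-06). The part of these markers in the changes of the repair genes was not tested. The levels of the lists by library show that recombination, Fanconi and S phase genes were all highest in OSI.

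**Figure D2:**
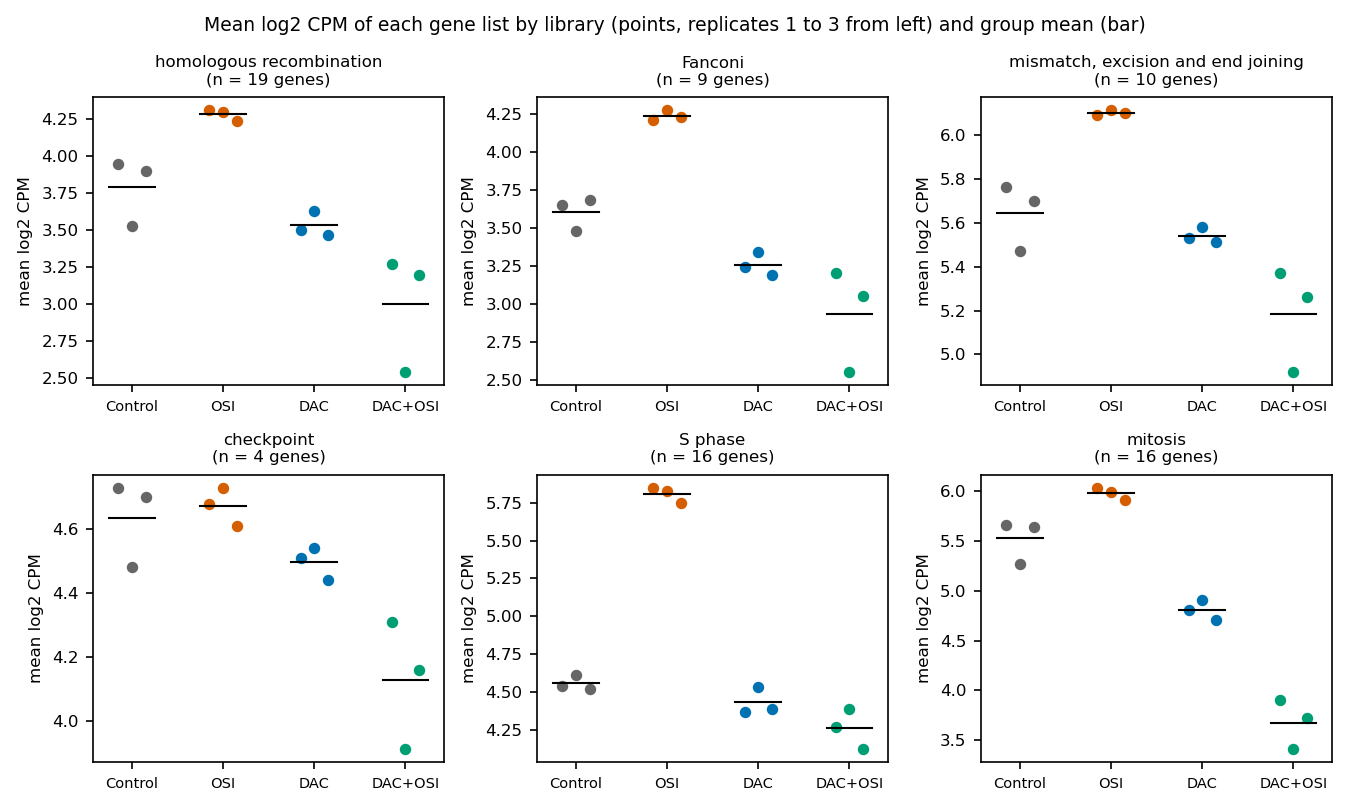
Mean log2 CPM (vertical axes, which do not start at 0) of 6 gene lists in each library, with bars at the group means. The DAC+OSI libraries were lowest for recombination and mitosis genes and overlapped with DAC for Fanconi genes, and the OSI libraries were highest for all of these, at 5.75 to 5.85 for S phase markers against 4.52 to 4.61 in Control.

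The RefSeq promoter windows (250 bases before to 50 after the gene's start, build GRCh38.p14) of 4 of the 6 members with an entry and the smallest adjusted p in OSI or DAC+OSI against Control are shown, read 5′ to 3′ on the gene's strand. Capitals mark matches to an E2F-type core, searched on both strands as the letters TTCCCGC, the letters TTGGCGC, the letters TTCGCGC or the letters TTGCCGC. NEIL3 is included as a member with no such match.
RAD54L (chr1:46247438-46247737, plus strand): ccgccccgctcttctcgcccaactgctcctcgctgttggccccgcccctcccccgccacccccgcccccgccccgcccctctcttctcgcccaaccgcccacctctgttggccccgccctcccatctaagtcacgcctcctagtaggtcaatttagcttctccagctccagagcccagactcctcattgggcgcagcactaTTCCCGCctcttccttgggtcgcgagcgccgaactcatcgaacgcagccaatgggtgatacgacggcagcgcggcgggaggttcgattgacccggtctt
FANCD2 (chr3:10026187-10026486, plus strand): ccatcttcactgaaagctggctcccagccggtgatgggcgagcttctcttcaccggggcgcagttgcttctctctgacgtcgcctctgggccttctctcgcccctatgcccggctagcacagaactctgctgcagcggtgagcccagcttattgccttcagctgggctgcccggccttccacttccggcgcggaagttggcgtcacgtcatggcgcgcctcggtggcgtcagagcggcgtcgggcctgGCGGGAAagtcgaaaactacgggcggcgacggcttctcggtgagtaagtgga
EXO1 (chr1:241847954-241848253, plus strand): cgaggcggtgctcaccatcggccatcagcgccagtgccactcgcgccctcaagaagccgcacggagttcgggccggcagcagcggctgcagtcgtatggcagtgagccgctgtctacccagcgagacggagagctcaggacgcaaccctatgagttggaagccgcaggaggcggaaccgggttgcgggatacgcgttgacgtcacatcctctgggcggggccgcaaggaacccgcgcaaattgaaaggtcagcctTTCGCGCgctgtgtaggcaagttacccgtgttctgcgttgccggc
NEIL3 (chr4:177309624-177309923, plus strand): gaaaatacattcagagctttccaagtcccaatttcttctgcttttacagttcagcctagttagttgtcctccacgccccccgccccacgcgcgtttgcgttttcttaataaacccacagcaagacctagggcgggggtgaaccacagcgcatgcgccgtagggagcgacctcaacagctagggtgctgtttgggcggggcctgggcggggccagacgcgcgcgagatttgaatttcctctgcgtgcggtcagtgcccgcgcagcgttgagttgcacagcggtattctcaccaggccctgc

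The match began at position -49 from the start in RAD54L, at -2 in FANCD2 and at 6 in EXO1. In the same windows of EME1 and POLQ, the other members of the 6, the core began at -80 and at 15. Such a core was present in 22 of the 36 members with a promoter entry (61.1%) and in 13.1% of 27305 promoters of the table. It was present in 15 of 24 recombination and Fanconi promoters (62.5%) and in 7 of 8 mismatch, excision and end-joining promoters (87.5%), so by this count it was not concentrated in the recombination and Fanconi genes. The cell cycle element searched as TTTGAA or TTTAAA was present in 7 of the 36 (19.4%) against 24.3% of all promoters, and CCAAT in 19 (52.8%) against 35.7%. A match describes letters in a window and shows no binding. The 27305 promoters were those of every symbol with an entry, untested genes included, and were not matched for GC content. The part of the core in the changes was not tested. RAD54B, FANCI, RMI2, XRCC5, PRKDC and NBN had no entry.

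With DAC alone fewer members were called with all 12 libraries, and these were recombination, Fanconi and checkpoint genes. No member rose and 6 fell, where 5.33% of all tested genes rose, 4.11% fell and 9.43% were called in either direction: MUS81, RAD54L and EME1 among recombination genes, FANCG and FANCD2 among Fanconi genes, and CHEK2. RAD54L measured 6.55, 7.90 and 7.04 CPM in DAC, all below Control (fell by 0.71, SE 0.15, adjusted p = 0.0124). MUS81 measured 46.0, 47.1 and 44.7 CPM (fell by 0.69, SE 0.15, adjusted p = 0.0103) and EME1 2.17, 2.96 and 2.20 CPM (fell by 0.73, SE 0.21, adjusted p = 0.0452). For these genes, too, the DAC libraries did not overlap with Control. FANCG went from 13.6, 17.6 and 15.2 CPM in Control to 9.33, 10.01 and 8.95 CPM (fell by 0.71, SE 0.14, adjusted p = 0.00591), and FANCD2 to 19.2, 17.5 and 16.6 CPM (fell by 0.54, SE 0.15, adjusted p = 0.0412). CHEK2, the kinase that relays the ATM signal, fell to 15.5, 17.3 and 14.6 CPM, below every Control library (by 0.77, SE 0.18, adjusted p = 0.0199).

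No end-joining, mismatch or excision gene was called by edgeR with DAC when all 12 libraries were used, whereas the 10-library fit called POLQ (-0.92, adjusted p = 8.91e-06), XRCC6 (-0.26, adjusted p = 0.00606) and NEIL3 (-0.62, adjusted p = 0.00373) lower. At an unadjusted p under 0.05, 2 of these 10 genes were lower and 0 higher, DESeq2 called 2 lower and limma-voom 0. Over all 42, ATM was the 1 gene that was higher at an unadjusted p under 0.05 and by each of DESeq2 and limma-voom. With all 12 libraries, the members with the smallest p within the end-joining, excision and mismatch classes were POLQ at 11.6, 12.8 and 10.3 CPM (-0.72 ± 0.24, adjusted p = 0.082), NEIL3 at 4.05, 4.58 and 3.72 CPM (-0.41 ± 0.20, adjusted p = 0.245) and MSH6 at 37.1, 40.0 and 40.6 CPM (0.27 ± 0.19, adjusted p = 0.414). All 3 DAC libraries lay below Control for POLQ and above it for MSH6, and those of NEIL3 overlapped with Control. ATM had a positive value (0.50 ± 0.15, adjusted p = 0.0597), the largest among the members, without passing the test. The count of calls changed as libraries were left out. Without DAC 1 or DAC 3, which makes the DAC group smaller, 1 call remained. Leaving out DAC+OSI 2, a library of neither group compared, gave 15 calls. Over the 21 alternative analyses the log2 fold change stayed between -0.81 and -0.65 for RAD54L and between -0.82 and -0.54 for MUS81. The 10-library fit called 1 member higher (ATM) and 23 lower, against 13.1% and 12.8% of all genes, and kept all 6 calls. Of those lower, 13 were recombination, 5 Fanconi, 2 end-joining, 1 excision and 2 checkpoint genes, and the GC correction gave 18 calls.

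With DAC, 10 of 16 mitosis markers fell and 1 of 16 S phase markers did (16 and 4 in the 10-library fit). Mean mitosis levels were 4.71 to 4.91 log2 CPM, below the Control range, and S phase levels were 4.37 to 4.53 against 4.52 to 4.61. Their part in the changes was not tested. Other genes of the pathways mostly stayed below the threshold. Of recombination and Fanconi genes 2 of 44 fell, among them HROB (-0.75), a share close to the 4.11% of all tested genes. In the 10-library fit 10 of 45 fell, against 12.8% of all genes. Of 19 checkpoint genes 5 fell, led by MDC1 (-0.91) and CDC25B (-0.92), and RNF168 rose (0.50), where 5.33% of all tested genes rose. POLM, a polymerase of classical end joining, rose from 38.5, 44.8 and 38.5 CPM to 144.0, 137.6 and 144.5 CPM (1.81 ± 0.11, adjusted p = 8.75e-07), with all DAC libraries far above Control.

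With the combination most recombination and Fanconi genes fell. Against Control, edgeR called 23 members lower and none higher, where 12.8% of all tested genes fell and 15.4% rose, and 0 were higher at an unadjusted p under 0.05 or by DESeq2 or limma-voom. The genes that fell were 11 of 19 recombination genes, 6 of 9 Fanconi genes, the end-joining genes POLQ and XRCC6, the excision genes NEIL3 and PARP1, and the kinases CHEK1 and CHEK2; neither mismatch gene was called by any of the 3 tools or at an unadjusted p under 0.05. In the 10-library fit 30 members were lower and 4 higher (PALB2, MSH6, PMS2 and ATM), against 20.2% and 20.8% of all genes, and all 23 calls were kept. Those lower were 14 recombination, 7 Fanconi, 3 end-joining, 3 excision and 3 checkpoint genes. A fit of the Control and DAC+OSI libraries alone called 13.

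RAD54L measured 6.21, 3.94 and 5.49 CPM with the combination, below every Control library (fell by 1.15, SE 0.16, adjusted p = 0.000144). EME1 measured 1.83, 1.02 and 1.91 CPM (fell by 1.31, SE 0.22, adjusted p = 0.000637). RAD51AP1, which stimulates strand pairing, went from 9.80, 4.93 and 8.67 CPM in Control to 3.69, 1.85 and 2.64 CPM (fell by 1.49, SE 0.27, adjusted p = 0.00139). In all of these the groups did not overlap, and DAC+OSI 2 was the lowest library of its group. XRCC2, a recombination mediator (-1.48), the helicase BLM (-1.19), EXO1 (-1.18), BRCA1 (-1.0), BARD1 (-0.93), RAD54B (-0.89), RBBP8, which starts resection (-0.73), and MUS81 (-0.67) fell too, with RAD54B and RBBP8 overlapping between groups through Control 2. BRCA2 (-1.0, adjusted p = 0.0534), NBN (-0.63, adjusted p = 0.0814) and RAD51C (-0.53, adjusted p = 0.0627) did not pass. With the replicate number as a block, though it was not shown to pair libraries, these reached adjusted p = 0.0319, 0.0371 and 0.0353. The other recombination members, PALB2, XRCC3, RMI2, MRE11 and RAD50, lay between -0.28 and 0.24.

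FANCD2 went to 13.9, 9.24 and 11.3 CPM with the combination (fell by 1.16, SE 0.15, adjusted p = 0.000114). FANCG measured 9.92, 8.66 and 7.74 CPM (fell by 0.82, SE 0.14, adjusted p = 0.000719) and FANCI 28.7, 18.5 and 24.1 CPM (fell by 0.78, SE 0.16, adjusted p = 0.0033). None of these overlapped with Control. FANCA (-0.60), FANCE (-0.50) and FANCC (-0.43) fell as well, though the call of FANCE was lost in 6 of 22 alternative analyses, among them the replicate block in a fit of Control and DAC+OSI alone (adjusted p = 0.059). BRIP1 (-0.89, adjusted p = 0.0677) did not pass in the main fit and passed with the replicate block (adjusted p = 0.0395), while FANCL (-0.29) and FANCM (-0.10) were not called in either.

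Outside these pathways the largest fall with the combination was in NEIL3, at 1.85, 1.75 and 1.38 CPM (fell by 1.73, SE 0.22, adjusted p = 7.19e-05). POLQ measured 9.25, 4.28 and 6.57 CPM (fell by 1.49, SE 0.25, adjusted p = 0.000642). Both lay below Control without overlap, and the log2 fold change of NEIL3 was the lowest of all 42 members in this comparison. XRCC6 went from 368.7, 357.0 and 358.0 CPM in Control to 271.5, 232.9 and 273.6 CPM (fell by 0.48, SE 0.11, adjusted p = 0.00443), and PARP1 from 212.9, 217.2 and 200.0 CPM to 169.7, 149.1 and 161.2 CPM (fell by 0.39, SE 0.10, adjusted p = 0.0115). These abundant transcripts changed by less than NEIL3 and POLQ, and again no library of one group reached the other. PMS2, the endonuclease subunit of mismatch repair, measured 24.3, 17.97 and 21.9 CPM in Control and 29.7, 19.3 and 32.2 CPM with the combination and was not called (0.34 ± 0.18, adjusted p = 0.174). UNG at 27.4, 15.03 and 24.4 CPM (0.06 ± 0.18) and MSH6 at 41.3, 23.5 and 40.8 CPM (0.12 ± 0.19) overlapped with Control. PMS2 has 11 named pseudogene copies in the annotation and XRCC6 has 5, so their counts may be split.

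The effector kinases fell with the combination, and the apical kinases were not called with all 12 libraries. CHEK1, which relays the ATR signal, went from 12.4, 9.16 and 12.5 CPM in Control to 7.14, 3.99 and 6.09 CPM (fell by 0.97, SE 0.20, adjusted p = 0.00263). CHEK2 measured 12.9, 19.8 and 12.4 CPM (fell by 0.85, SE 0.18, adjusted p = 0.00386). For both, all DAC+OSI libraries lay below Control, with DAC+OSI 2 the lowest for CHEK1 and the highest for CHEK2. ATM (0.28 ± 0.15, adjusted p = 0.2) and ATR (-0.41 ± 0.19, adjusted p = 0.124) did not pass the test. ATR was called lower in the 10-library fit (-0.32, adjusted p = 0.0033) and with the replicate block in a fit of Control and DAC+OSI alone (-0.47, adjusted p = 0.0216), and ATM was called higher in the 10-library fit (0.28, adjusted p = 0.0161).

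**Figure D3:**
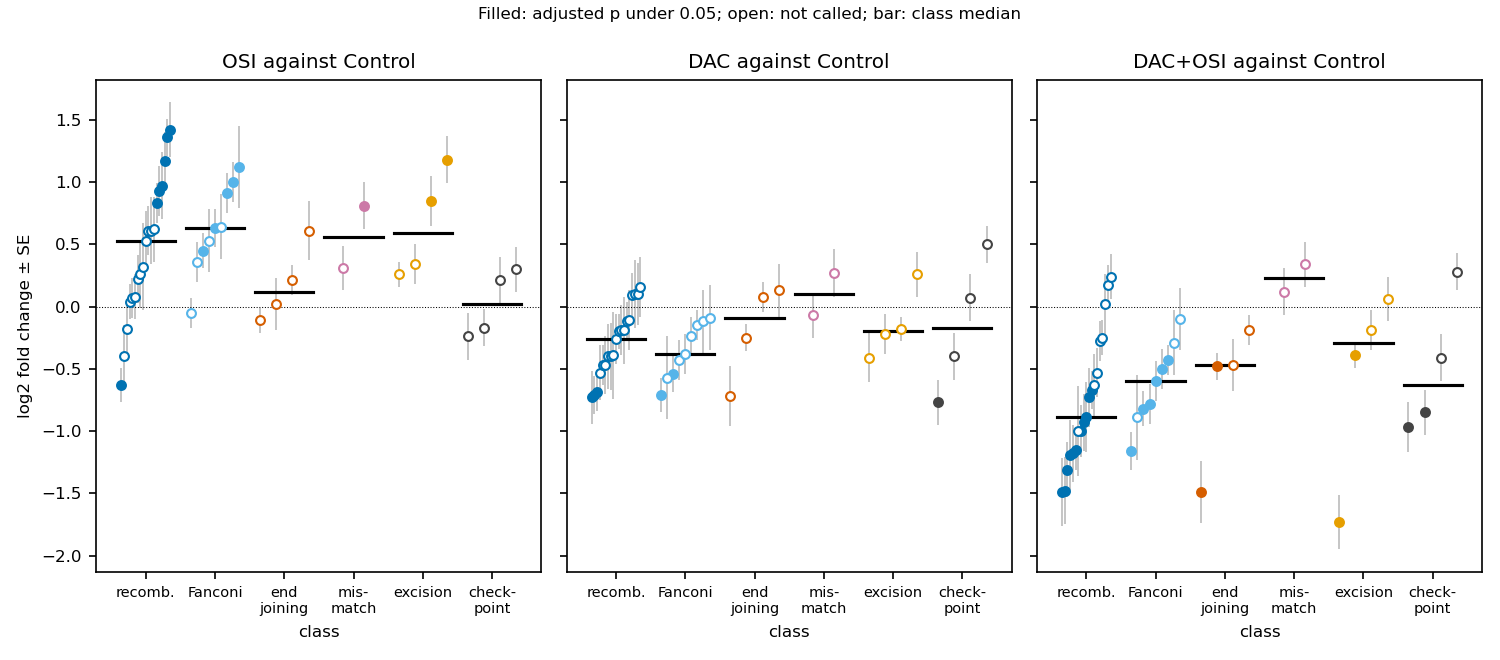
Log2 fold change ± SE (vertical axis) of each of the 42 genes against Control by class, for OSI, DAC and DAC+OSI, with called genes filled and class medians as bars. The recombination median went from 0.53 with OSI to -0.26 with DAC and -0.89 with the combination, and the Fanconi median from 0.63 to -0.38 and -0.60.

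Among other genes of the pathways, 7 of 44 recombination and Fanconi genes fell and none rose with the combination, including the resolvase GEN1 (-1.19). Of all tested genes 12.8% fell and 15.4% rose, so the share that fell was close to that of all genes. In the 10-library fit 18 of 45 fell (40%) and 0 rose, against 20.2% and 20.8% of all genes. Of 19 checkpoint genes 8 fell, led by CDC25C (-1.69), CDC25B (-1.25) and MDC1 (-0.94), and RNF168 rose (0.92). Of 20 other base excision genes 4 rose, among them the glycosylases NEIL2 (0.99) and NEIL1 (0.75), and 4 fell, among them MUTYH (-1.29). Of 17 nucleotide excision genes UVSSA rose (2.12) and GTF2H3 fell (-0.94). POLM reached 200.0, 213.2 and 204.6 CPM (2.34 ± 0.11, adjusted p = 3.77e-08), while LIG3 fell by 1.02.

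All 16 mitosis markers fell with the combination and 4 of 16 S phase markers did (16 and 10 in the 10-library fit). Mean levels were 3.41 to 3.90 log2 CPM for mitosis, far below Control, and 4.12 to 4.39 for S phase, just below it. E2F1 measured 17.3, 32.0 and 15.4 CPM, above every Control library (0.93 ± 0.23, adjusted p = 0.00841). CDKN1A, which encodes the kinase inhibitor p21, was higher (0.43 ± 0.12). The part of these genes in the changes was not tested.

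Set against OSI alone, most members were lower with the combination. Of the 42, 30 fell and none rose in edgeR's test, where 7.96% of all tested genes fell and 9.01% rose; 1 (ATM) was higher at an unadjusted p under 0.05 and by DESeq2, and 0 by limma-voom. The falls comprised 12 of 19 recombination, 8 of 9 Fanconi, 3 of 4 end-joining, 1 of 2 mismatch, all 4 excision and 2 of 4 checkpoint genes. EXO1, at 7.74, 3.31 and 5.94 CPM with the combination, was 2.61 lower on the log2 scale (-2.61 ± 0.24, adjusted p = 7.25e-06). NEIL3 (-2.58 ± 0.22), RAD54L (-2.51 ± 0.16, adjusted p = 4.68e-07), EME1 (-2.23 ± 0.22) and POLQ (-2.10 ± 0.25) fell as well, given here with those below as the members with the smallest p in each class. FANCD2 (-1.80 ± 0.16), FANCI (-1.78 ± 0.17) and FANCG (-1.27 ± 0.14) fell likewise, as did CHEK1 (-1.18 ± 0.20) and CHEK2 (-1.15 ± 0.18). UNG (-1.12 ± 0.19), MSH6 (-0.69 ± 0.19), PARP1 (-0.66 ± 0.10), PRKDC (-0.40 ± 0.12) and XRCC6 (-0.36 ± 0.11) fell by less. PRKDC measured 202.8, 237.4 and 213.1 CPM in OSI and 180.6, 141.9 and 171.2 CPM with the combination, and no library of any of these 15 genes overlapped between OSI and DAC+OSI. The calls of PRKDC, XRCC6 and MSH6 were lost in 5, 4 and 3 of 21 alternative analyses, and those of the excision gene XRCC1 and the Fanconi gene FANCC in 13 and 8. The 10-library fit called 35 members lower and 2 higher (PALB2 and ATM), against 19.8% and 20.9% of all genes, and those lower were 15 recombination, 9 Fanconi, 4 end-joining, 1 mismatch, 4 excision and 2 checkpoint genes.

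MUS81 was called lower than Control in every treated group and was not called between the combination and either single treatment. Its level was 41.6, 54.3 and 43.7 CPM with the combination, overlapping with OSI (-0.04 ± 0.14, adjusted p = 0.886) and with DAC (0.02 ± 0.14, adjusted p = 0.95). With all 12 libraries it was the 1 member called lower in all 3 treated groups against Control, by 0.63 to 0.69 on the log2 scale. These comparisons share the Control libraries, and 14.1% of the exon bases of MUS81 are also assigned to CFL1 on the opposite strand, which unstranded counting could not separate. In MUS81, Control 2 was the highest library at 89.3 CPM.

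Against DAC alone, the combination changed few members. RMI2 rose and 7 fell, where 6.1% of all tested genes rose and 4.52% fell. RMI2 measured 3.29, 3.73 and 3.33 CPM in DAC and 4.60, 6.18 and 5.43 CPM with the combination (0.64 ± 0.16, adjusted p = 0.0224). NEIL3 fell without overlap (-1.32 ± 0.22, adjusted p = 0.0021). RAD51AP1, at 4.97, 7.08 and 5.74 CPM in DAC, was lower in all 3 DAC+OSI libraries (-1.09 ± 0.27, adjusted p = 0.0232). XRCC2 measured 21.3, 21.4 and 16.8 CPM in DAC and 11.8, 5.01 and 11.1 CPM with the combination (-1.07 ± 0.27, adjusted p = 0.0241). FANCD2 (-0.62 ± 0.15), BLM (-1.01 ± 0.28), RAD54B (-0.99 ± 0.28) and BRCA1 (-0.74 ± 0.21) also fell, all without overlap with DAC.

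The classes without a call in this comparison had POLQ (-0.77, adjusted p = 0.0648), CHEK1 at 9.22, 8.93 and 7.63 CPM in DAC (-0.56, adjusted p = 0.0863) and PMS2 at 21.2, 20.9 and 19.2 CPM in DAC (0.41, adjusted p = 0.162) as the members with the smallest p. The count of members called in this comparison changed as libraries were left out. It fell to 5 without OSI 1, OSI 2 or OSI 3, which belong to neither group compared. It fell to 2, 1 and 3 without DAC 1, DAC 2 and DAC 3, and to 4 without DAC+OSI 3. Without DAC+OSI 1 it rose to 15. The 10-library fit called 3 members higher and 17 lower, against 12.6% and 11.2% of all genes; those lower were 9 recombination, 2 Fanconi, 2 end-joining, 1 excision and 3 checkpoint genes. Here 16 of 16 mitosis markers and 2 of 16 S phase markers fell (16 and 6 in the 10-library fit), and their part in the result was not tested.

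The effect of DAC differed between cells with and without OSI for 13 members. The interaction, defined as the effect of DAC in OSI-treated cells minus its effect in untreated cells, was negative for all 13, where 1.91% of all tested genes were called negative, 1.01% positive and 2.92% in either direction. None was called positive by edgeR, DESeq2 or limma-voom, and 1 (MUS81) was positive at an unadjusted p under 0.05. These were 8 recombination genes, the Fanconi genes FANCI, FANCD2 and FANCA, and the excision genes NEIL3 and UNG. RAD54L was 0.71 lower with DAC alone and 2.51 lower when DAC was added to OSI (values of -0.71 and -2.51), a difference of -1.80 ± 0.22 (adjusted p = 0.0009). EXO1 (-2.08 ± 0.32, adjusted p = 0.00352), NEIL3 (-2.17 ± 0.30, adjusted p = 0.00195), FANCI (-1.54 ± 0.23, adjusted p = 0.00342) and FANCD2 (-1.26 ± 0.22, adjusted p = 0.00681) showed the same sign. For UNG the value was 0.26 for DAC without OSI, which did not pass, and -1.12 for DAC with OSI (difference -1.39 ± 0.26, adjusted p = 0.0123). POLQ (-1.37, adjusted p = 0.0508), MSH6 (-0.96, adjusted p = 0.0746) and CHEK1 (-0.78, adjusted p = 0.181) did not pass. E2F1 (-1.96), UBE2T (-1.31), LIG1 (-1.35), FEN1 (-0.94), CLSPN (-1.55) and CDC25C (-1.46), outside the 42, were called in the same direction, whereas POLM was called positive (1.38).

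The interaction contains the OSI libraries, in which these genes were high. Where OSI raised a gene and the combination did not, the value is negative unless DAC alone lowered that gene at least as much. Of the S phase markers 10 of 16, and of the mitosis markers 14 of 16, were called negative as well (16 and 16 in the 10-library fit), and their part was not tested. Leaving out OSI 2 or DAC 2 reduced the count from 13 to 7, and the 10-library fit called 24 members negative and 2 positive (MUS81 and PMS2), against 10.4% and 9.85% of all genes. The negative ones were 10 recombination, 5 Fanconi, 2 end-joining, 1 mismatch, 4 excision and 2 checkpoint genes. The plot of the effect of DAC with and without OSI shows the 13 genes below the line of equality.

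**Figure D4:**
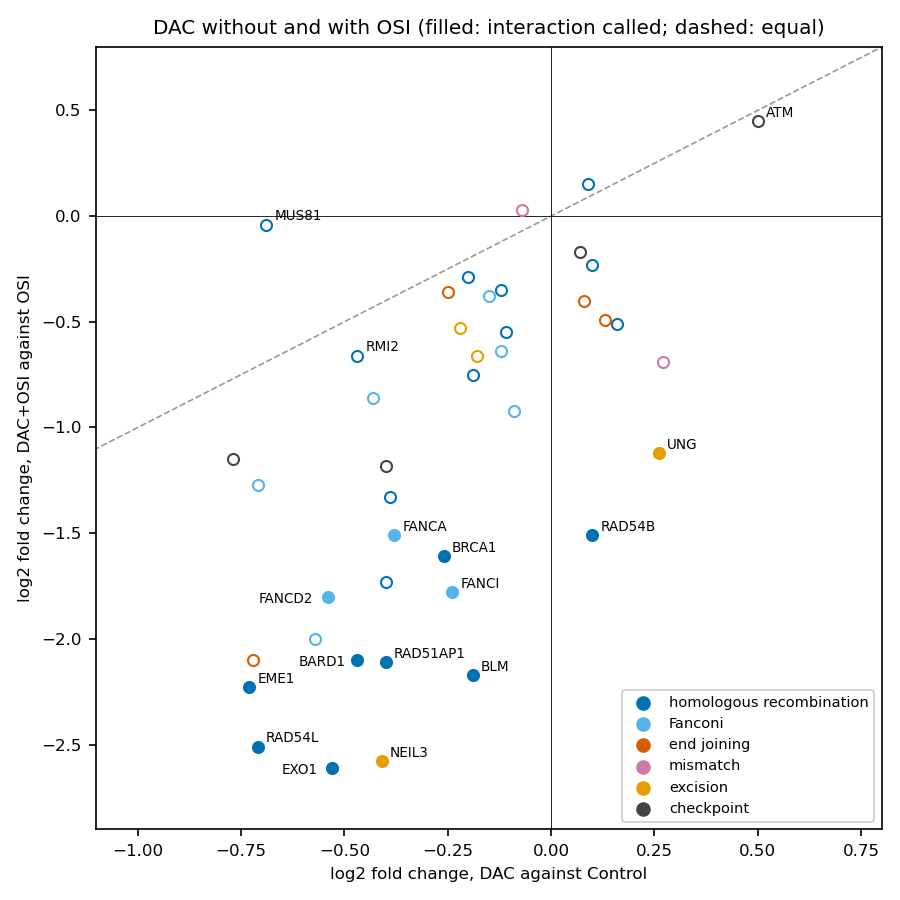
Log2 fold change of DAC against Control (horizontal axis) and of DAC+OSI against OSI (vertical axis) for the 42 genes, coloured by class, filled where the interaction was called, with a dashed line where both are equal. The 13 filled genes lie below the line, RAD54L at -0.71 and -2.51, and the open circle of MUS81 lies above it at -0.69 and -0.04.

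Between the pathway groups, the recombination and Fanconi genes had medians further from 0 than the mismatch, excision and end-joining genes in each comparison with all 12 libraries, which is given as a description without a test. With OSI, 11 of 28 rose and 1 fell against 3 of 10 that rose, with median log2 fold changes of 0.57 and 0.32, where the median of all genes was -0.01. With DAC, 5 of 28 fell against 0 of 10 (medians -0.32 and -0.13, all genes 0.01). With the combination 17 of 28 fell against 4 of 10, with medians of -0.75 and -0.29 (all genes 0.03). Against OSI, the combination lowered 20 of 28 and 8 of 10, with medians of -1.30 and -0.59 (all genes 0.04), and against DAC it lowered 6 of 28 and 1 of 10, with medians of -0.39 and -0.22 (all genes 0.01). For the interaction the medians were -0.89 and -0.55 (all genes 0.02). Of all tested genes, 10.6% rose and 8.23% fell with OSI, 4.11% fell with DAC and 12.8% fell with the combination. Against OSI 7.96% fell, and against DAC 4.52%. The 0 of 10 with DAC was thus close to the share of all genes.

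In the 10-library fit the counts of the pathway groups were different. Of all genes in that fit, 21.5% were called higher and 20.8% lower with OSI, and 12.8% lower with DAC. With the combination 20.8% were higher and 20.2% lower. Against OSI 19.8% were lower and against DAC 11.2%, and for the interaction 10.4% were negative and 9.85% positive. With OSI, 18 of 28 recombination and Fanconi genes were called higher and 3 lower, against 7 of 10 of the others higher, so the larger share that rose was then in the mismatch, excision and end-joining group. With DAC, 18 of 28 were lower against 3 of 10. With the combination 21 of 28 were lower and 1 higher, against 6 of 10 lower and 2 higher. The 2 of 10 higher were close to the share of all genes. Against OSI, 24 of 28 (85.7%) and 9 of 10 (90%) were lower, and against DAC 11 of 28 and 3 of 10. For the interaction 15 of 28 (53.6%) and 7 of 10 (70%) were negative, and 1 of each group was positive. Against OSI and for the interaction, too, the larger share was thus in the mismatch, excision and end-joining group. Against OSI this held with all 12 libraries as well.

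The difference between the group medians was 0.25 with OSI, -0.19 with DAC, -0.46 with the combination against Control, -0.71 against OSI, -0.17 against DAC and -0.34 for the interaction. In the 10-library fit it was 0.06 with OSI, and without Control 2 alone it was 0.07. With the GC correction, which keeps all libraries, it was 0.38. The size of the difference with OSI thus depended on the setting, and the cause was not tested. With the combination it was -0.36 against Control and -0.58 against OSI in the 10-library fit, and for the interaction -0.09. Within each library, the mean log2 CPM of the recombination and Fanconi genes minus that of the other group was -1.95 to -1.88 in Control, -1.86 to -1.81 in OSI, -2.13 to -2.05 in DAC and -2.37 to -2.11 in DAC+OSI. The OSI range lay just above Control (-1.86 against -1.88 at the nearest) and the DAC and DAC+OSI ranges below it. The SD of this difference within groups, pooled over the groups, was 0.0805.

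The classes were not uniform within themselves. The mismatch, excision and end-joining group held NEIL3 and POLQ, which fell by 1.73 and 1.49 with the combination, beside UNG, MSH6 and PMS2, whose values were 0.06, 0.12 and 0.34. The recombination group held PALB2, which bridges BRCA1 and BRCA2, at 19.0, 15.3 and 19.2 CPM in Control, 19.6, 17.1 and 20.1 CPM in OSI, 18.7, 19.8 and 18.5 CPM in DAC and 23.9, 14.6 and 24.3 CPM in DAC+OSI. All 4 groups overlapped for PALB2, and its log2 fold changes lay between 0.08 and 0.24 against Control; the 10-library fit called it higher with the combination (0.33, adjusted p = 0.00895). XRCC3, RAD50, MRE11, PALB2, FANCM, PMS2, ATM and ATR passed the test in none of the 6 comparisons with all 12 libraries, and neither did XRCC5 and NBN. Of these 10 genes, 9 were called in at least 1 comparison in the 10-library fit, the exception being RAD50. NBN, for example, was called lower there with OSI (-0.59, adjusted p = 3.37e-06) and PMS2 higher with the combination against DAC (0.60, adjusted p = 2.09e-05). MRE11, RAD50 and NBN form the complex that first binds broken ends. The annotation assigns 79.7% of the exon bases of RAD50 and 76.7% of those of XRCC3 to overlapping genes as well, so their counts are uncertain.

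**Figure D5:**
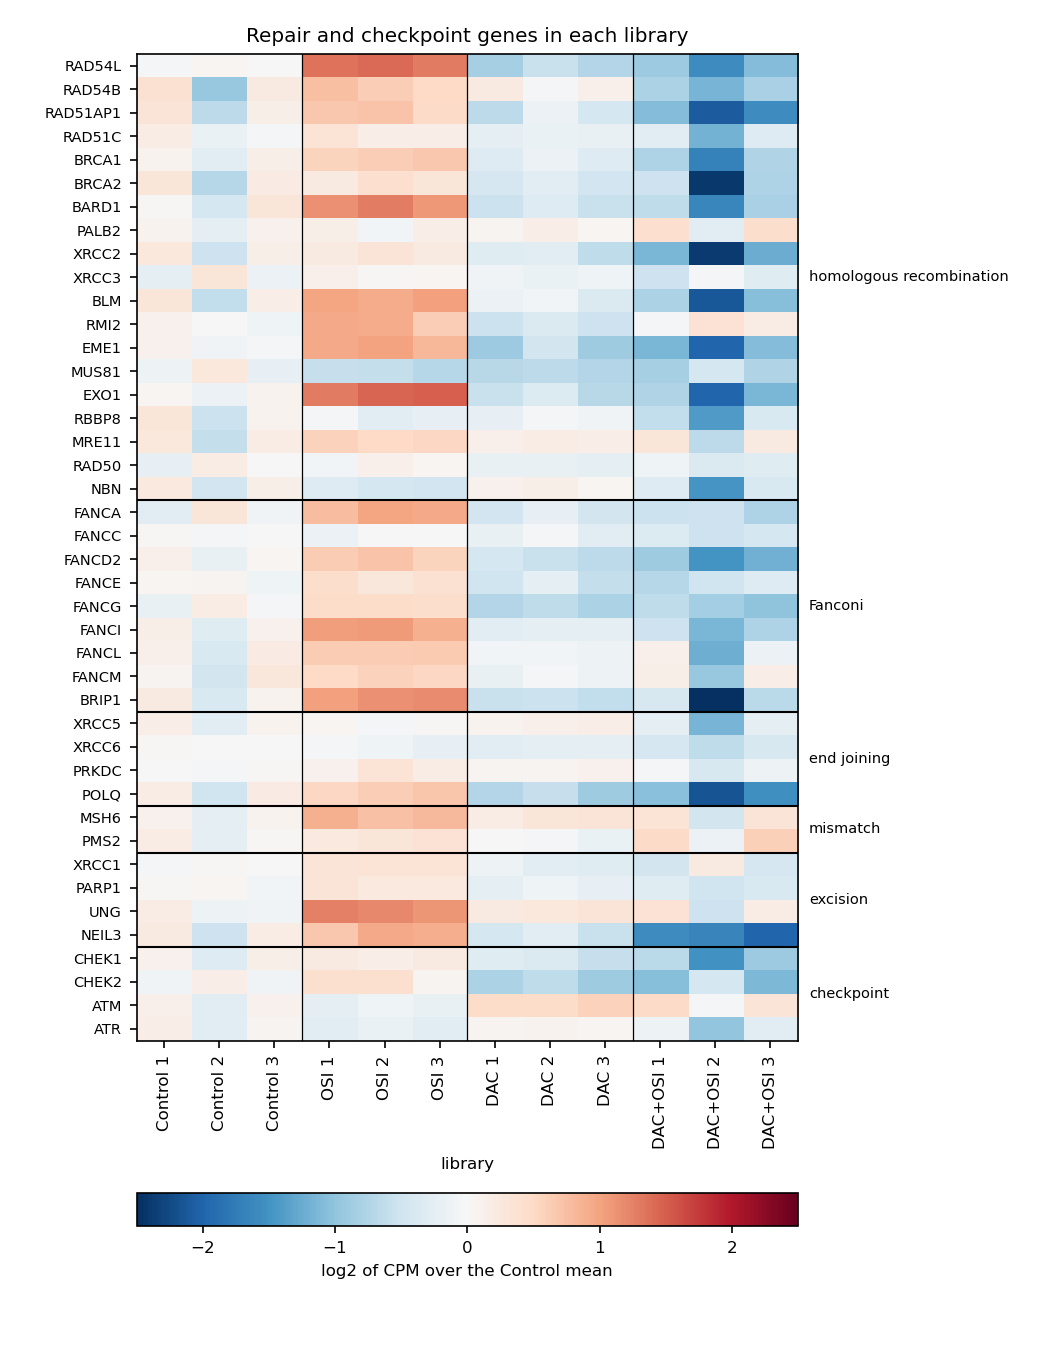
Log2 of the CPM in each of the 12 libraries over the mean CPM of Control (colour, red higher and blue lower) for the 42 genes, ordered by class. RAD54L, EXO1 and FANCI are red in all OSI libraries and blue in all DAC+OSI libraries, and DAC+OSI 2 is the bluest column for many recombination genes.

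Counted by separation of the groups, 27 members lay wholly above Control in OSI and 2 wholly below (21.5% and 18.7% of all genes), and 4 above and 14 below in DAC (20.2% and 19%). With the combination, 24 lay wholly below Control and 0 above (18% and 18.7% of all genes). Against OSI, 36 lay wholly below and 1 above (16.3% and 15.8%). Of the 42 members, 11 share over 10% of their exon bases with another annotated gene, RAD54L 25.1% with LRRC41 and FANCA 23.6% with ZNF276 among them, and 9 have named pseudogene copies.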

How the data were processed

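The deposited values are whole-number read counts per Ensembl gene, taken as raw counts from the values themselves, for 39266 genes in 12 libraries. The RNA was poly(A)-enriched, per the labels' protocols. CASAVA, HISAT2 and featureCounts are named in the submitters' processing notes, without versions. Genome build, annotation and strand setting were not given in the sources used here. Ensembl identifiers were matched to symbols (39178 matched), and exon lengths, GC content and overlaps were read from GENCODE 29. Promoters came from RefSeq by symbol.

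Genes with low counts were removed with filterByExpr (20820 genes left), libraries were scaled by TMM, and edgeR 4.0.16 in R 4.3.3 fitted a quasi-likelihood model to all 12 libraries with 1 mean per group (biological coefficient of variation 20.9%). Tests were two-sided, p-values were adjusted over all genes tested within each of 6 comparisons, and genes were called at an adjusted p under 0.05. The SE is the size of the log2 fold change over the square root of F. Mean log2 CPM used a prior count of 2. The procedure was also run on counts simulated from its own fitted spread, without the GC trend of Control 2 and DAC+OSI 2. That run therefore gives no information on the effect of these libraries. As alternatives, libraries were scaled by relative log expression or by the upper quartile, genes were left unfiltered, and the fit was replaced by DESeq2 1.42.0 or limma-voom 3.58.1. Further fits held only the groups compared, left out each library, took the replicate number as a block, corrected for GC content (known for 98.2% of genes tested) or left out Control 2 and DAC+OSI 2 (the 10-library fit). A block in a fit of the compared groups only was chosen after the data were seen.

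The members, classes and gene lists were chosen with earlier results of these data known. Given with library values were, per class and comparison, up to 3 called members with the smallest adjusted p, or the uncalled member with the smallest p; of other genes, up to 3 per list were named, with CDKN1A and E2F1 for reference, and a few genes of these lists are not reported here. PALB2 was added after its values were seen, as were single members named for a low or high count of calls. Deviations from the group mean correlated between same-numbered libraries by -0.06 to 0.43 across genes. They exceeded 0.1 in 3 of 18 pairs, all between Control and DAC+OSI (0.29, 0.43 and 0.20). Unlike numbers also correlated there: Control 1 with DAC+OSI 3 by 0.28 and Control 3 with DAC+OSI 1 by 0.17. Control 2 correlated with DAC+OSI 1 and DAC+OSI 3 by -0.35 and -0.37. As deviations within a group sum to 0, these correlations are not independent of each other. The numbers thus singled out no pair beyond Control 2 with DAC+OSI 2, the libraries with the unlike GC trend. The replicate block is therefore given as an alternative only.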

Additional observations from a re-analysis of the deposited data

Results flagged for a closer look

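For 13 members the effect of DAC differed between cells with and without OSI in edgeR's interaction term (adjusted p under 0.05). All values are log2 differences, the effect with OSI minus that without, and all are negative. Among the recombination genes these were EXO1 (-2.08), BLM (-1.98), RAD54L (-1.80), RAD51AP1 (-1.71), BARD1 (-1.63), RAD54B (-1.60), EME1 (-1.50) and BRCA1 (-1.35). Among the Fanconi genes these were FANCI (-1.54), FANCD2 (-1.26) and FANCA (-1.13), and among the excision genes NEIL3 (-2.17) and UNG (-1.39). The largest adjusted p was that of RAD54B (0.0466), and the smallest that of RAD54L (0.0009).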

How the results depend on the processing

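The members chosen for the smallest p in each class and comparison gave 1409 values under the alternatives. Of these, 1293 kept their direction and side of the threshold, 62 lost the call, 54 gained one and 0 changed direction. Their choice by p made a change of direction unlikely from the start. PALB2, which was not in this set, went to -0.01 with OSI and -0.01 with DAC in the 10-library fit. The other scalings moved the median of all genes by at most 0.01. The count of members called rose with the GC correction and the 10-library fit, to 25 and 31 for OSI against Control (15), to 18 and 24 for DAC against Control (6), to 20 and 20 for DAC+OSI against DAC (8) and to 24 and 26 for the interaction (13). Over all genes, calls rose as well in the 10-library fit. The shares higher and lower went from 10.6% and 8.23% to 21.5% and 20.8% for OSI. For DAC they went from 5.33% and 4.11% to 13.1% and 12.8%. For DAC+OSI against DAC they went from 6.1% and 4.52% to 12.6% and 11.2%. For the interaction they went from 1.01% and 1.91% to 9.85% and 10.4%. Shares of all genes were not counted for the other alternatives. With DESeq2 the count of members was 10 for DAC and 15 for DAC+OSI against DAC. In fits of the compared groups only it was 10 for DAC, 13 for DAC+OSI against Control (23) and 2 for DAC+OSI against DAC, which was 14 without a filter. The cause of these shifts was not tested. With the replicate block the count was 27 for DAC+OSI against Control (28 in the added fit of those groups only) and 13 for DAC+OSI against DAC. The numbers were not shown to pair libraries in either comparison. The difference of group medians with the block was -0.44 for the interaction (-0.34). That difference was 0.38 with the GC correction and 0.06 in the 10-library fit for OSI, -0.36 in both for DAC+OSI against Control, -0.58 in the 10-library fit against OSI and -0.09 in it for the interaction.

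Leaving out 1 library at a time gave 11 to 25 members for OSI (25 without DAC+OSI 2), 1 to 15 for DAC, 20 to 32 for DAC+OSI against Control, 23 to 32 against OSI, 1 to 15 against DAC and 7 to 18 for the interaction. The difference of medians ran from 0.07 to 0.34, from -0.23 to -0.11, from -0.58 to -0.36, from -0.79 to -0.57, from -0.31 to -0.10 and from -0.48 to -0.09 in the same order.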

Other observations

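Outside repair by recombination, the polymerase gene POLM had the opposite sign to the median of the 42 members in every comparison. It measured 38.5, 44.8 and 38.5 CPM in Control, 23.0, 22.0 and 23.1 CPM in OSI, 144.0, 137.6 and 144.5 CPM in DAC and 200.0, 213.2 and 204.6 CPM in DAC+OSI. The 4 groups did not overlap. Its log2 fold change was -0.84 with OSI, 1.81 with DAC and 2.34 with the combination. POLM was chosen after its values were seen.

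CDKN1A, which encodes the kinase inhibitor p21, measured 51.5, 61.2 and 48.5 CPM in Control and 32.5, 33.4 and 33.2 CPM in OSI, below every Control library, and 66.5, 73.3 and 77.0 CPM in DAC+OSI, above every one.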
